A study of Mus musculus with 8 samples.

Results

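C13 and C18 are 2 sorted progenitor populations of mouse bone marrow. The series concerns subpopulations of common myeloid progenitors, though its description numbers the clusters partly otherwise than the library titles. Their open chromatin was compared in the 4 libraries titled C13 and C18, replicates 1 and 2 of each, out of 8 libraries in the series. All cells came from wild-type C57BL/6 mice and were KIT+ CD16/32- CD34dim. C13 cells lacked CD41 and CD9, while C18 cells carried both and had dim CD48. No age and no treatment is given in the labels, and nothing there says that the replicates came from separate animals or pools. The p-values below therefore reflect variation between libraries that may be no more than technical.

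ATAC-seq uses a transposase to insert sequencing adapters where DNA is not wrapped tightly in nucleosomes. Peaks of insertion mark promoters, which are often open in many cell types, and distal elements such as enhancers, which are more often particular to a lineage. Common myeloid progenitors lie between multipotent cells and the erythroid, megakaryocyte and granulocyte-monocyte branches, and CD41, the integrin alpha IIb chain, is best known from the megakaryocyte branch. The dendritic cell and lymphoid genes used below are known from cells that arise through FLT3+ progenitors. In a bulk population, fewer cells with an open site and a less open site in each cell cannot be told apart.

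Each library has a list of 100000 peaks ranked by the signal of the peak caller F-Seq, rank 1 being the strongest. A locus is a protein-coding gene with 10 kb to each side, and its value is the rank of its strongest peak. The rank difference is on the log2 scale, C13 minus C18, and positive where the peak ranks stronger in C13, so that 1 unit is a rank number 2 times smaller. An unlisted peak was placed at the rank after the last, and a difference that involves one depends on that placing, as does its p-value. Where both libraries of a population are unlisted, their values are equal by this placing and hold no variation. Of 21887 loci, 13733 had a peak among the 20000 strongest in at least 2 of the 4 libraries and were tested with limma. A locus that passed this filter only through the population where it is strong had to differ, so counts over lists of loci are descriptions. Promoter peaks had any part within 1 kb of a gene start, so that the summit of a wide peak can lie farther away. Distal peaks had no part within 1 kb of a start, or of either end of a gene without a listed start. Both kinds were also ranked among themselves, since promoters took up more of the top ranks in C18. Distances below are from the peak summit to the gene start, positive downstream.

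The promoters of 8 genes from the lists used below show the kind of sequence that was among the 20000 strongest peaks in both libraries of only 1 population. They were chosen after values were seen. Siglech, a receptor of plasmacytoid dendritic cells, Tlr9, a receptor for unmethylated DNA, Cx3cr1, the fractalkine receptor of monocytes, and Mmp8, the neutrophil collagenase, held a top peak in C13 only. Hba-a1 (alpha globin), Kel (a red cell blood group protein), Gp1ba (the platelet receptor for von Willebrand factor) and Hemgn (hemogen, an erythroid nuclear protein) held one in C18 only. The sequences are the 250 bases before the RefSeq start (GRCm38.p6, the assembly of mm10), 5′ to 3′ on the strand of the gene. Capitals mark GATAA (GATA factors), TGTGGT (RUNX) and GAGGAAGT (PU.1) on either strand.
Siglech: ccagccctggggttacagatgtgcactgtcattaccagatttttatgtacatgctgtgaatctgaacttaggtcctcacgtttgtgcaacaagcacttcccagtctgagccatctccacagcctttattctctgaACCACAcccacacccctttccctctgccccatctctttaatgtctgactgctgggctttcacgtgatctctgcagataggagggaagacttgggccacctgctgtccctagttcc
Tlr9: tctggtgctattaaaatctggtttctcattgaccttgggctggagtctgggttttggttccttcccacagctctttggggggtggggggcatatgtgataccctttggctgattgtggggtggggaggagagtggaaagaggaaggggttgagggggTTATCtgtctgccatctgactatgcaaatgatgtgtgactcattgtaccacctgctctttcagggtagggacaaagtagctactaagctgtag
Cx3cr1: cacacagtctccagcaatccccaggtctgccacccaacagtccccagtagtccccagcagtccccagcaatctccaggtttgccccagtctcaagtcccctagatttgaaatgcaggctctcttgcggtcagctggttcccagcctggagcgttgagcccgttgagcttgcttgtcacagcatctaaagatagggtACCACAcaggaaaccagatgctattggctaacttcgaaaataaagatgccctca
Mmp8: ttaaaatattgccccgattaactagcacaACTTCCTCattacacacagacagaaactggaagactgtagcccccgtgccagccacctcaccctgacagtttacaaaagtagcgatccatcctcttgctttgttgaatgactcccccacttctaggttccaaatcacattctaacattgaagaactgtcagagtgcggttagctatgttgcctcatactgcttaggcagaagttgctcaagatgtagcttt
Hba-a1: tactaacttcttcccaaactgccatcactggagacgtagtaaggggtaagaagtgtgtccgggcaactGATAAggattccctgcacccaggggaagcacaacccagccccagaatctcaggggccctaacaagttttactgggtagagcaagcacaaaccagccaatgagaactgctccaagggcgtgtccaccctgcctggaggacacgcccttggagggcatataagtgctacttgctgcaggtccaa
Kel: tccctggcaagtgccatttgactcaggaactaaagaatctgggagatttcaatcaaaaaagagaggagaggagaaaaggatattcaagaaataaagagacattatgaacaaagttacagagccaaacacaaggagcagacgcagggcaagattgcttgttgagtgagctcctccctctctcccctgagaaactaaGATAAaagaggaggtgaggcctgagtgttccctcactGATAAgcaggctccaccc
Gp1ba: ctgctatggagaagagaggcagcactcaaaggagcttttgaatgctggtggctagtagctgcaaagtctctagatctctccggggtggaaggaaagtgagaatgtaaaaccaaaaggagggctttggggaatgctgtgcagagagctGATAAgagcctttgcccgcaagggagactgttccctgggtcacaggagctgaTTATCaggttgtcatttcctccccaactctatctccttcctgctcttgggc
Hemgn: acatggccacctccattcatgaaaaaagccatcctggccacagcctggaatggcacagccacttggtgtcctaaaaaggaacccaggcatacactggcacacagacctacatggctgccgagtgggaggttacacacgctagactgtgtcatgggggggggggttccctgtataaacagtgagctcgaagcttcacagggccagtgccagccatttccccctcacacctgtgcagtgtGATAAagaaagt
They lie at chr7:55767934-55768183 (+), chr9:106222348-106222597 (+), chr9:120068297-120068546 (-), chr9:7558179-7558428 (+), chr11:32283422-32283671 (+), chr6:41704326-41704575 (-), chr11:70638872-70639121 (+) and chr4:46404184-46404433 (-), in the order printed. GATAA lay 182 bases before the Hba-a1 start, 55 and 18 bases before that of Kel, 103 and 51 before that of Gp1ba and 12 before that of Hemgn, but also 93 bases before the start of Tlr9. TGTGGT lay on the other strand 115 bases before the Siglech start and 54 before that of Cx3cr1, and GAGGAAGT 221 bases before that of Mmp8, again on the other strand. A match is only a match of letters.

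The genes of the sort markers were examined first. Itga2b, which encodes CD41, had its strongest peak at ranks 21571 and 26042 in the CD41- C13 libraries and at 9259 and 6243 in the CD41+ C18 libraries (chr11:102453297-102469883). Both C18 libraries thus ranked it above both C13 libraries, with a rank difference of -1.64 (SE 0.33, adjusted p = 0.00116), where all tested loci had a median of -0.64. Its best distal peak, 2602 bases downstream of the start, ranked 13798 and 17266 among distal peaks in C13 and 3133 and 1384 in C18 (-2.89, adjusted p = 0.0107). The distal call ended without C13 replicate 1 (-3.05, adjusted p = 0.068) and without C13 replicate 2 (-2.73, adjusted p = 0.11). Cd9, a tetraspanin whose product was absent from C13 by the sort, did not follow the phenotype, with ranks 13826 and 7697 in C13 and 13482 and 14527 in C18 (0.44, adjusted p = 0.3). It was called higher in C13, opposite to the sort, with 50 kb to each side (1.19, adjusted p = 0.0068) and with loci ranked among loci (0.53, adjusted p = 0.047), and had the opposite sign by signal times width (-0.63). Cd48 was not tested, since only 1 library had a top peak there (ranks 23702 and 21885 in C13, 24797 and 15746 in C18).

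Cd34 separated the populations although both were sorted CD34dim. Its promoter peak, 32 bases from the start, ranked 695 and 1443 among promoter peaks in C13 and 6590 and 6383 in C18, a difference of 2.70 (SE 0.35, adjusted p = 7.1e-05). Kit, the receptor for stem cell factor, had best peaks at ranks 9748 and 9313 in C13 and 4254 and 5788 in C18. That difference of -0.94 (adjusted p = 0.031) was near the median of all loci, missed the test in 8 of 19 alternatives, among them 3 of the 4 fits with a library left out (-0.72 to -0.97, each except that without C18 replicate 2), and was 0.05 when peaks were ranked by signal times width. Its promoter did not pass (-0.08, adjusted p = 0.83). Fcgr3, which encodes CD16, did not pass either at its locus (-0.79, adjusted p = 0.081), but did without C18 replicate 1 (-1.27, adjusted p = 0.0024), by signal times width (-1.08, adjusted p = 0.027) and with 50 kb to each side (-1.18, adjusted p = 0.0054). Fcgr2b, which encodes CD32, was not tested.

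Over all loci, 2185 of 13733 ranked higher in C13 (15.9%) and 5684 lower (41.4%), with a median of -0.64 (limma, Benjamini-Hochberg adjusted p under 0.05). Promoters took up more of the top ranks in C18, and the part of this in the surplus of lower loci was not tested. When loci were ranked among loci, 3245 were higher (23.6%) and 3303 lower (24.1%), with a median of -0.06. All 2185 higher and all 5684 lower loci kept their sign under that ranking, and 3303 of the lower ones were still called. Among promoter peaks, 1441 of 7798 were higher (18.5%) and 2185 lower (28%). Among distal peaks, 1489 of 6775 were higher (22%) and 1594 lower (23.5%). These shares are the background for every list below. In the fits without 1 library the filter was applied again to the libraries left. A locus with top peaks in 1 population alone was then not tested without a library of that population. Without C13 replicate 1 or 2, 5496 and 5458 distal peaks were tested, so counts of these fits cover different loci. Without C13 replicate 1 or 2 the higher loci numbered 1176 and 1195, the promoter calls 589 and 811 higher and 1074 and 1428 lower, and the distal calls 215 and 208 higher and 635 and 639 lower. Without C18 replicate 1 the distal peaks counted 2236 higher, and without C18 replicate 1 or 2 the promoter peaks counted 1159 and 1086 lower.

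**Figure D1:**
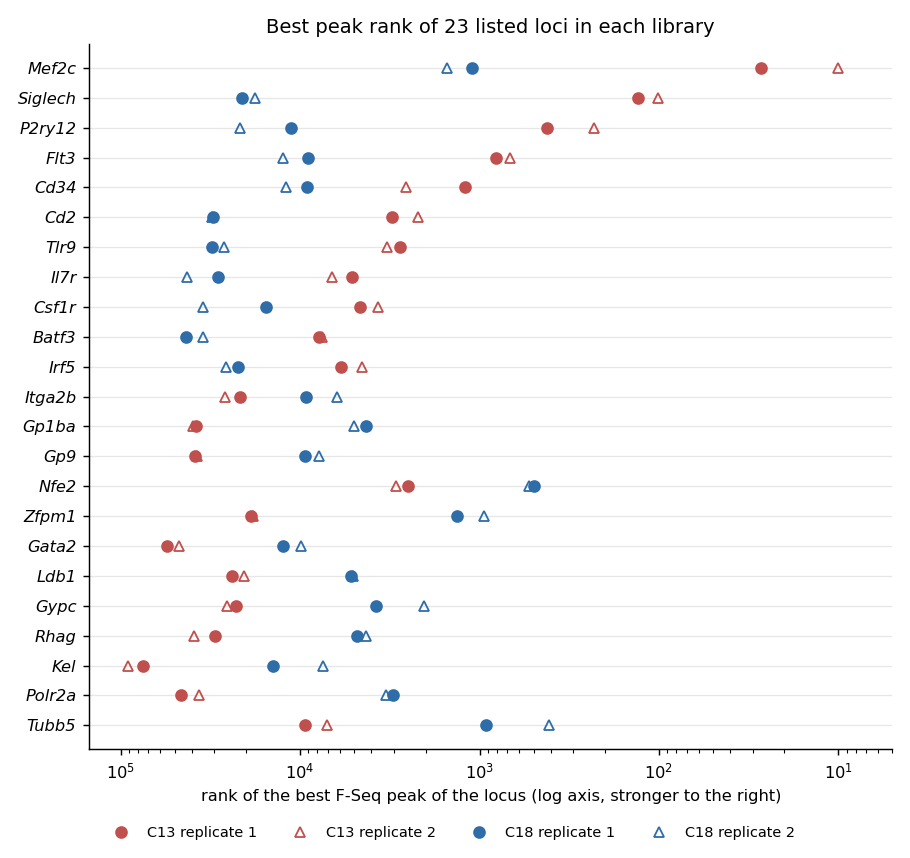
Rank of the strongest F-Seq peak of 23 listed loci in each library, on a log axis with stronger peaks to the right; filled circles are replicate 1, open triangles replicate 2, red C13 and blue C18. From Mef2c (ranks 27 and 10 in C13) down to Irf5 the C13 libraries lie to the right of both C18 libraries, and from Itga2b to Tubb5, the last 2 loci being housekeeping genes, to the left.

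Erythroid loci ranked mostly lower in C13. Of 40 loci 35 were tested, and 25 of them were lower, 1 higher and 9 not past the test, with a median of -1.53. Housekeeping loci, which serve every cell, moved the same way at 14 of 23, with 2 higher and a median of -1.28, so the erythroid count lies above the 41.4% of all loci but near that of housekeeping loci. With loci ranked among loci, 16 erythroid loci were lower and 2 higher (median -0.46), against 11 and 2 of the housekeeping loci (median -0.47). Gypc, a membrane glycoprotein of red cells, ranked 22643 and 25659 in C13 and 3791 and 2042 in C18 (-3.11, SE 0.37, adjusted p = 3.2e-05). Rhag, the Rh-associated glycoprotein, ranked 29854 and 38817 in C13 and 4829 and 4280 in C18 (-2.90, SE 0.32, adjusted p = 2e-05). With 50 kb to each side the Rhag locus had a value of 0.58 and did not pass. Kel ranked 74708 and 90912 in C13, where it had only weak peaks, and 14143 and 7471 in C18 (SE 0.37, adjusted p = 3.8e-05). It lost its call when all ranks beyond the 20000 strongest were set equal (-0.96, adjusted p = 0.056). Both C18 libraries ranked above both C13 libraries in each of these 3 loci. These loci were named for their small p, which favours such a separation.

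The distal peaks of erythroid loci differed in both directions. Of 16 tested, 7 were lower and 4 higher, with a median of -1.96 against -0.06 for all distal peaks. The best distal peak of Gypc ranked 34401 and 39497 among distal peaks in C13 and 632 and 221 in C18 (-6.62, SE 0.64, adjusted p = 0.00124). Gypc lies on chromosome 18, where no starts were listed, so a start inside the gene may count as distal. That of Rhag lay 4295 bases before the gene start and ranked 20314 and 27640 in C13 and 960 and 704 in C18 (-4.85, SE 0.50, adjusted p = 0.0014). The alpha globin promoter Hba-a1 was unlisted among the 14413 promoter peaks used from each C13 list and ranked 6613 and 6302 in C18 (-1.16, adjusted p = 2e-05). The 2 C13 values are equal by placing, so this p-value reflects no variation between the C13 libraries. Its near-identical copy Hba-a2 had the same pattern, and reads of the copies may not be told apart. The 4 distal peaks that ranked higher in C13 lay at Uros, Cpox, Aqp1 and Ermap. Uros and Cpox encode haem synthesis enzymes that all cells use, and the best distal peak of Uros ranked 1048 and 1304 in C13 and 32576 and 13333 in C18 (4.16, adjusted p = 0.0038). Aqp1, a water channel of red cells and endothelium, was also the 1 higher locus, with ranks 1684 and 2176 in C13 and 14305 and 7275 in C18 (2.41, SE 0.41). Its peak lay 4767 bases before the start, and the locus had the opposite sign with 2 kb to each side (-0.45, adjusted p = 0.32). Without C13 replicate 1 its distal peak missed the test (3.02, adjusted p = 0.071).

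Transcription factors of the erythroid and megakaryocyte branches were split. Of 16 loci 13 were tested, with 7 lower in C13, 2 higher and 4 not past the test (median -1.11), and 6 of 11 distal peaks were lower and 1 higher (median -2.52). With loci ranked among loci 4 were lower and 4 higher (median -0.33). Zfpm1, the FOG1 partner of GATA factors, ranked 18706 and 18402 in C13 and 1334 and 944 in C18 (-4.05, SE 0.36, adjusted p = 7.3e-06). Gata2, a factor of stem cells and early progenitors, had its best distal peak 4066 bases before the start, at ranks 41575 and 34665 in C13 and 5215 and 3223 in C18 (-3.21, SE 0.43). That call ended with all ranks beyond the 20000 strongest set equal (-1.36, adjusted p = 0.057), and the call of the Gata2 locus (-2.19) with 50 kb to each side (-0.23, adjusted p = 0.57). Nfe2, a factor of platelet formation, and Ldb1, a bridging protein of enhancers and promoters, were lower as well (-2.39 and -2.11). Mef2c went the other way by a wide margin. This factor of megakaryocytes, B cells and muscle had its best peak 1431 bases before the start, at ranks 27 and 10 in C13 and 1108 and 1510 in C18 (6.30, SE 0.67, adjusted p = 1.7e-05). Fli1 was the other higher locus (1.00, adjusted p = 0.049) and lost its call in 8 of 19 alternatives, among them those without C13 replicate 1 (1.11), without C13 replicate 2 (0.89) and without C18 replicate 2 (0.61). The locus of Gata1, the central factor of both branches, was not tested, with ranks 59291 and 58900 in C13 and 45374 and 10293 in C18. Tal1 did not pass (0.38, adjusted p = 0.33).

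Megakaryocyte and platelet loci moved in both directions. Of 27 tested, 11 were lower and 4 higher, with a median of -0.48, so the share of lower loci was 40.7% beside 41.4% of all loci. With loci ranked among loci 6 were lower and 7 higher (median 0.03). Gp1ba ranked 37806 and 39691 in C13 and 4297 and 5016 in C18 (-3.06, SE 0.31, adjusted p = 1.3e-05). Gp9, a part of the same receptor, ranked 38530 and 37358 in C13 and 9441 and 7817 in C18 (-2.14, SE 0.31). With 50 kb to each side it had the opposite sign (1.68, adjusted p = 0.0023). Mmrn1 (multimerin 1) and Alox12 (platelet lipoxygenase) were also lower (-2.02 and -1.91). P2ry12, the ADP receptor of platelets that microglia also carry, was stronger in C13, with its best peak at ranks 422 and 229 in C13 and 11167 and 21568 in C18 (chr3:59216271-59262985; 5.64, SE 0.47, adjusted p = 4.9e-06). The summit lay 2058 bases downstream of the start. Clec1b, the podoplanin receptor (1.68), Selp, the adhesion molecule P-selectin (2.09), and Itgb3, which pairs with CD41 (1.40), were higher too. Itgb3 ranked 11601 and 9368 in C13 and 30778 and 24536 in C18, opposite to Itga2b, and missed the test with 50 kb to each side (0.35, adjusted p = 0.38). Among distal peaks 7 of 19 were lower, among them that of Tubb1, the platelet tubulin (-3.91), and 3 higher.

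Lymphoid loci were more often higher in C13. Of 30 loci 20 were tested, with 9 higher (45% beside 15.9% of all loci), 3 lower and 8 not past the test, and a median of 0.18. Flt3, the receptor for FLT3 ligand, ranked 810 and 680 in C13 and 9054 and 12513 in C18 (3.84, SE 0.40, adjusted p = 1.4e-05; chr5:147330741-147400489). Its promoter peak, 69 bases from the start, ranked 491 and 373 among promoter peaks in C13 and 5171 and 6527 in C18. Cd2, an adhesion receptor of T cells, ranked 3064 and 2191 in C13 and 30489 and 30876 in C18 (3.57, SE 0.33). Il7r, the receptor for interleukin 7, ranked 5127 and 6658 in C13 and 28569 and 42494 in C18 (2.58, SE 0.34). Ms4a1, the B cell antigen CD20, had a peak at ranks 12596 and 11142 in C13 and none listed in C18. All 4 loci kept their calls in every alternative in which they were tested. Cd2, Il7r and Ms4a1 had top peaks in C13 alone, so the fits without a C13 library did not test them. The lower loci were Lck, Cd79a and Klrb1c. The best peaks of Lck and Cd79a lay 15571 and 6772 bases from their starts, and with 2 kb to each side neither passed (-0.03 and -0.22). Klrb1c lost its call in 8 of 15 alternatives, among them those without C13 replicate 1 (-0.98) and without C18 replicate 2 (-0.47). Cd3e, a part of the T cell receptor complex, had only weak peaks in both populations and ranked 41293 and 45546 in C13 and 80572 in C18 replicate 1, with no peak in replicate 2.

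A list of 20 dendritic cell genes was added after values were seen, with Siglech already known to lead the higher loci. Of 16 tested loci 10 were higher and 3 lower (median 2.01), a description of a list that was chosen for this direction. Siglech had its strongest peak at ranks 131 and 101 in C13 and 21091 and 17718 in C18 (7.39, SE 0.43, adjusted p = 4.4e-07; chr7:55768154-55779448). That peak lay 16587 bases downstream of its start and also fell in the locus of Tubgcp5, a gamma-tubulin complex gene. The Siglech promoter itself, printed above, ranked 959 and 803 among promoter peaks in C13 and was unlisted in C18. The promoter of Tlr9 ranked 1413 and 1520 in C13 and 11984 in C18 replicate 1, and was unlisted in C18 replicate 2. Clec9a, a receptor for dead cells on dendritic cells, ranked 1409 and 1355 in C13 and 6928 and 12588 in C18 (2.76, SE 0.40), and Cadm1, an adhesion molecule of the same cells, 1205 and 377 against 33938 and 12872 (4.95, SE 0.57). The exceptions were Xcr1 (-2.14), Bst2 (-1.85) and Tcf4 (-1.56), the last a factor that plasmacytoid dendritic cells need. Bst2 lost its call with 2 kb to each side (-0.53). The locus of Irf8, a factor of monocytes and dendritic cells, was not tested, since only C18 replicate 2 had a top peak there (ranks 31670 and 23423 in C13, 34095 and 18088 in C18).

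**Figure D2:**
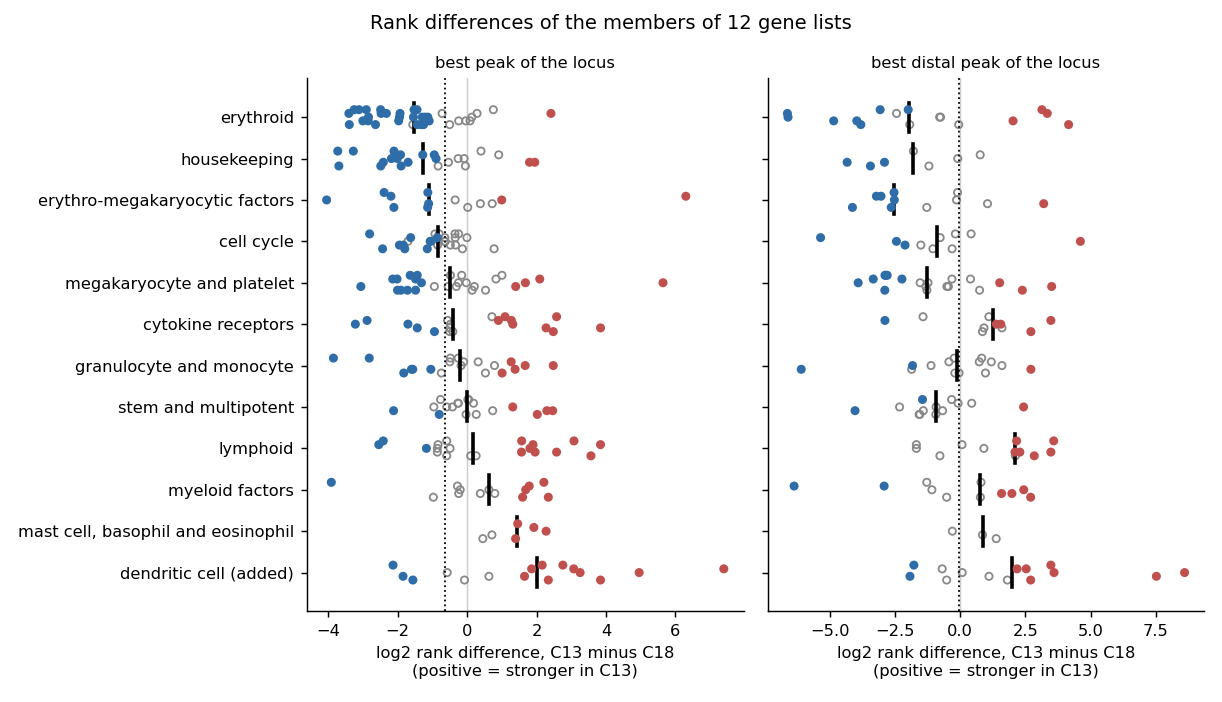
Rank differences of the tested members of 12 gene lists, for the best peak of the locus (left) and the best distal peak (right); each point is a locus, red and blue points passed the test in either direction, grey circles did not, black bars are list medians and the dotted line is the median of all tested loci (-0.64 and -0.06). Erythroid, erythro-megakaryocytic factor and housekeeping loci lie mostly to the left and dendritic cell loci mostly to the right, and most lists hold loci on both sides.

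The list of myeloid factors, which includes dendritic cell factors such as Batf3, leaned towards C13. Of 13 tested, 5 were higher and 1 lower, with a median of 0.63, and 4 of 7 promoters were higher and 0 lower. Irf5, an interferon regulatory factor of monocytes and B cells, ranked 5918 and 4517 in C13 and 22164 and 25844 in C18 (2.21, SE 0.32). Irf4 ranked 4269 and 3680 in C13 and 17206 and 10892 in C18, with its best peak 16 bases from the start (1.79, SE 0.35). Batf3, a factor of conventional dendritic cells, ranked 7824 and 7559 against 43465 and 34796 (2.34, SE 0.31), and Zeb2, a repressor of the epithelial programme that myeloid cells also use, was higher too (1.69). Cebpe, a factor of late granulocytes, was the lower locus, at ranks 45729 and 44394 in C13 and 2734 and 3276 in C18 (-3.91, SE 0.31, adjusted p = 4.3e-06). Neither Spi1, which encodes PU.1 (0.80, adjusted p = 0.069), nor Cebpa (0.38, adjusted p = 0.42) passed at its locus.

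Granulocyte and monocyte effector genes moved in both directions. Of 20 tested, 5 were higher and 6 lower (25% and 30%, beside 15.9% and 41.4% of all loci). The median was -0.22, beside -0.64 for all loci. With loci ranked among loci 7 were higher and 4 lower, beside 23.6% and 24.1% of all loci (median 0.10 beside -0.06). Csf1r, the receptor for macrophage colony-stimulating factor, ranked 4626 and 3692 in C13 and 15404 and 34547 in C18 (2.48, SE 0.39), but did not pass with 50 kb to each side (0.33). The Cx3cr1 promoter ranked 2742 and 1575 in C13 and 8010 and 8727 in C18 (2.01, SE 0.28), and that of Mmp8 3129 and 3315 against 8758 and 11735 (1.65, SE 0.21). The Cx3cr1 promoter missed the test with capped ranks (1.58, adjusted p = 0.061). The Cx3cr1 locus lost its call by signal times width (0.88, adjusted p = 0.12) and with 50 kb to each side (0.22, adjusted p = 0.65). It also did so without the filter (1.38), with capped ranks (1.38), without C13 replicate 2 (0.92) and without C18 replicate 2 (0.94). Lower were Fcgr1 (-3.85), S100a8 (-2.82), Ctsg (-1.83) and Lcn2 (-1.60). At Fcgr1, a receptor for antibodies, HOMER listed no such difference (-0.09, adjusted p = 0.88). S100a8 lost its call with capped ranks (-1.07) and with loci ranked among loci (-0.64), and Ctsg with capped ranks (-0.54). Mpo, the myeloperoxidase gene, ranked 11695 and 7322 in C13 and 3895 and 17279 in C18 and did not pass. Of the mast cell, basophil and eosinophil list 6 loci were tested, and 4 were higher and 0 lower. Il5ra, the receptor for interleukin 5, ranked 9712 and 9080 in C13 and 60266 and 34210 in C18 (2.27, SE 0.35), and had the opposite sign with 50 kb to each side (-0.32, adjusted p = 0.55). Prg2 and Prg3, neighbouring genes of eosinophil granule proteins, share their peak in C13 (ranks 4403 and 4987). Prg3 missed the test without C18 replicate 2 (0.91, adjusted p = 0.066).

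Stem and multipotent loci were mostly not past the test, with 4 of 18 higher and 2 lower (5 and 1 with loci ranked among loci). Mecom, a factor of self-renewal, ranked 2806 and 1875 in C13 and 11219 and 14279 in C18 (2.46, SE 0.37), and Cd93, an early progenitor antigen, 1214 and 1548 against 6450 and 7031 (2.30, SE 0.38). The promoter of Meis1, a homeobox factor of stem cells, ranked 970 and 829 among promoter peaks in C13 and 2805 and 3671 in C18 (1.84, SE 0.34). Pdzk1ip1, a small membrane protein, was lower, at ranks 16228 and 16855 in C13 and 5383 and 2695 in C18 (-2.12, SE 0.38). Ly6a, the stem cell antigen SCA-1, was the other lower locus (-0.80, adjusted p = 0.049), and lost its call in 8 of 13 alternatives, among them loci ranked among loci (-0.11, adjusted p = 0.35) and the fits without C13 replicate 1 (-0.68) and without C13 replicate 2 (-0.92). Of the cytokine receptors 8 of 19 were higher and 5 lower (9 and 3 with loci ranked among loci). Besides Flt3, Il7r, Il5ra and Csf1r, the higher loci included Cxcr4, the receptor for CXCL12, whose promoter peak, with its summit 1383 bases downstream of the start, ranked 1712 and 1436 in C13 and 4619 and 4348 in C18 (1.52). Lower were the interferon receptor genes Ifngr1, at ranks 4127 and 4412 in C13 and 600 and 558 in C18 (-2.88, SE 0.42), and Ifnar1, at 10252 and 11249 against 779 and 1705 (-3.22, SE 0.43), and Tgfbr1 (-1.71) and Kit were lower too. Tgfbr1 lost its call with peaks ranked by signal times width (-0.35) and with 50 kb to each side (-0.05).

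Markers of other marrow cells were present on both sides. Of 9 macrophage loci tested, 3 were higher and 3 lower (4 and 2 with loci ranked among loci), led by the scavenger receptor Marco, at ranks 1536 and 2375 in C13 and 33893 and 39871 in C18 (4.27, SE 0.35), and by Cd68 in the other direction (-3.25). The complement genes C1qa, C1qb and C1qc were not tested, C1qa ranking between 38964 and 60458 in the 4 libraries. Of 7 stroma and endothelium loci, 4 were higher and 2 lower. Cdh5, the endothelial cadherin, ranked 1720 and 1135 in C13 and 32019 and 27336 in C18 (4.40, SE 0.35), and Kdr, a receptor for vascular endothelial growth factor, 2921 and 2017 against 15185 and 17502 (2.75, SE 0.35). Flt1 (-2.12) and Tie1 (-1.93) were lower, Flt1 with the opposite sign at 50 kb to each side (0.24, adjusted p = 0.6). Of the collagen and matrix genes Col1a1, Col1a2 and Col3a1 none was tested. The part of other cells in these differences was not tested. Of the 20 non-haematopoietic loci 4 were tested, and 2 were lower and 0 higher (1 and 1 with loci ranked among loci).

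Cell cycle loci were lower about as often as all loci, but 0 were higher. Of 25 tested, 10 were lower (40% beside 41.4% of all loci) and 0 higher (beside 15.9%), with a median of -0.85. With loci ranked among loci 5 were lower and 0 higher (beside 24.1% and 23.6% of all loci), with a median of -0.19. The lower ones were led by Top2a, a topoisomerase of dividing cells, at ranks 24407 and 17234 in C13 and 2716 and 3152 in C18 (-2.81, SE 0.34), and by the replication helicase gene Mcm7 (-2.44). Of the housekeeping loci, Polr2a, the large subunit of RNA polymerase II, ranked 46135 and 36583 in C13 and 3044 and 3309 in C18 (-3.69, SE 0.32, adjusted p = 5.4e-06), and the beta tubulin gene Tubb5 9330 and 7097 against 917 and 412 (-3.73, SE 0.46). Gusb (1.95) and Sdha (1.80) were higher. Gusb had the opposite sign with 50 kb to each side (-1.52, adjusted p = 0.037), and Sdha lost its call in 11 of 19 alternatives, among them those without C13 replicate 1 (1.25) and without C18 replicate 2 (1.07). Among promoter peaks ranked among themselves the housekeeping list had a median of -0.09 beside -0.15 for all, with 6 of 17 lower (35.3% beside 28%) and 1 higher. The erythroid promoters had a median of -0.97, with 11 of 18 lower (61.1%) and 1 higher.

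The 10 higher loci with the smallest p were Trpa1, Siglech, Mogat1, Map3k19, Cldn1, Tekt3, Ccdc39, Pfpl, Gpr149 and Ctso, with rank differences from 4.95 to 8.38. Every one had a HOMER peak under its best F-Seq peak in both C13 libraries. Trpa1, an ion channel of sensory neurons, ranked 188 and 185 in C13 and 38683 in C18 replicate 1, with no peak in C18 replicate 2 (8.38, SE 0.46; chr1:14872644-14918862). Mogat1, an acyltransferase of fat synthesis, ranked 93 and 72 against 13330 and 12042 (7.27, SE 0.46), and Ctso, a cathepsin, 99 and 32 against 14053 and 14625 (7.99, SE 0.56). Map3k19 and Ccdc39 lost their call in 1 alternative each.

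In the other direction the leading 10 were Prl5a1, Ncoa1, Iqcm, Tafa5, Olfr27, Rit2, Gpr75, Lep, Adgrb3 and Stac, from -5.75 to -13.61. At none of them did HOMER list a peak in both C18 libraries under the F-Seq peak, although the F-Seq peak of Ncoa1 had rank 3 and that of Prl5a1 rank 8 in both. The HOMER lists used for this hold 252844 and 249132 peaks in C13 and 72379 and 83548 in C18. Among all called loci HOMER listed such a peak in both libraries of the stronger population at 2185 of 2185 higher and 5582 of 5684 lower loci. With that requirement, added after values were seen, the leading lower loci were Csnk1g2, Pop7, Gigyf1, Scamp4, Ddx17, Gm52236, Kntc1, Gatd1, Tcta and Cebpe, from -3.91 to -6.27. Csnk1g2, a casein kinase 1 gene, ranked 23826 and 23654 in C13 and 285 and 333 in C18 (-6.27, SE 0.39, adjusted p = 7.2e-07; chr10:80622676-80640771), and its neighbour Scamp4 shares that peak in C18. Pop7, a subunit of RNase P, ranked 25389 and 24795 against 664 and 720 (-5.18, SE 0.36), a peak shared with Gigyf1. Ddx17, an RNA helicase gene, ranked 43143 and 33728 against 2051 and 1707 (-4.35, SE 0.33). The peaks of Csnk1g2, Pop7, Ddx17, Kntc1, Gatd1 and Tcta lay at most 277 bases from their gene starts.

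**Figure D3:**
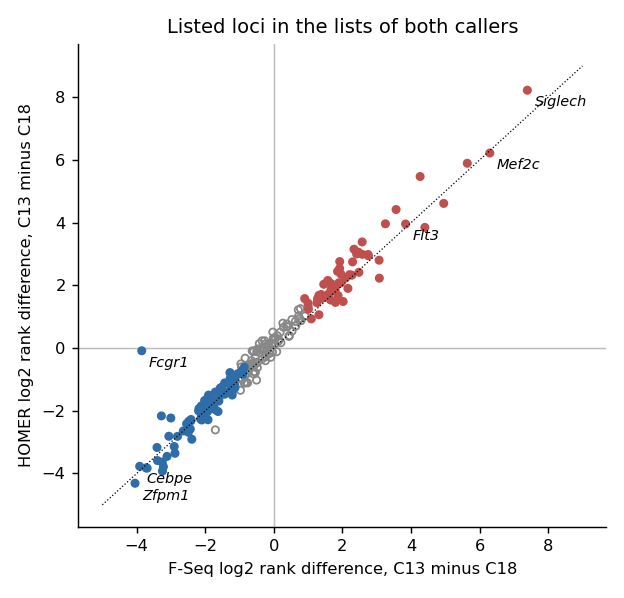
Rank differences of 216 listed loci in the F-Seq lists (x axis) and in the HOMER lists cut to equal length (y axis), with points coloured where the F-Seq test was passed, red for higher and blue for lower in C13, grey circles for loci not past it, and a dotted line at equal values. All 132 loci past the test have the same sign in both, and Fcgr1 lies farthest from the line.

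Ranked among their own kind, the leading promoters and distal peaks added further genes. The higher promoter peaks were those of P2ry12, Siglech, C1qtnf3 (3.47), Hivep3 (3.53) and Clec9a (2.78). Only that of Siglech had its summit within 1 kb of the start: the summits lay 2058 bases from the start for P2ry12, 1344 for C1qtnf3, 1723 for Hivep3 and 1367 for Clec9a. The HOMER lists cut to equal length held no peak within 1 kb of the start of C1qtnf3 or Clec9a in any of the 4 libraries. The lower ones were Csnk1g2 (-4.89), Pop7 (-3.76), Faf2 (-1.84), Gm39270 and Zc3h18. The distal peak of Rnf122, a ubiquitin ligase gene, ranked 39 and 40 in C13 and 13185 and 14370 in C18 (8.45). With HOMER support, the lower distal peaks included those at Tm9sf2, Puf60, Nrbp2 and Eif5.

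The sign of the differences was then checked in the HOMER lists, which come from the same libraries and so are no independent replicate. Of the 2185 higher loci 1986 could be tested with HOMER peaks, and 1979 of them (99.6%) had the same sign. Of the 5684 lower loci 4999 could be tested and 4979 (99.6%) had the same sign. Among promoter calls the same sign was found at 1155 of 1165 higher and 1857 of 1861 lower, and among distal calls at 1241 of 1261 higher and 1011 of 1049 lower. The HOMER lists themselves called 2110 of 12077 loci higher (17.5%) and 4355 lower (36.1%).

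**Figure D4:**
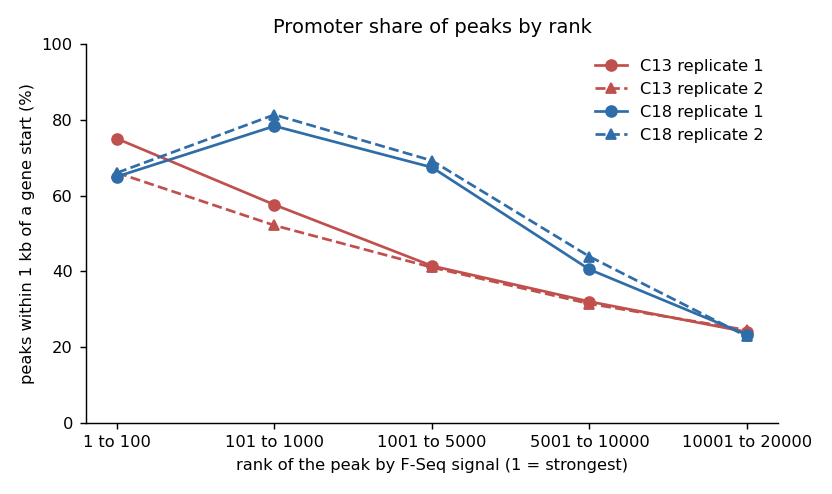
Share of F-Seq peaks that reach within 1 kb of a gene start, in percent, by the rank of the peak; red lines are the C13 libraries and blue lines the C18 libraries, solid for replicate 1 and dashed for replicate 2. From rank 101 to 5000 both C18 lines lie above both C13 lines, and beyond rank 10000 the 4 libraries lie within 22.8% to 24.5%.

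The strongest peaks of C18 were richer in promoters than those of C13. Among the 20000 strongest, 31.2% and 31.0% of peaks in the C13 libraries reached within 1 kb of a gene start, against 39.1% and 40.2% in C18. Between ranks 101 and 1000 the shares were 57.6% and 52.1% in C13 and 78.3% and 81.3% in C18. Over all 100000 peaks they were alike, at 14.4% and 14.5% in C13 and 14.8% in each C18 library. The C13 peaks were also wider, with medians of 1426 and 1438 bases against 966 and 1240, and covered 32.4 and 32.9 Mb against 21.9 and 28.0 Mb. Read counts are not in the lists, so depth is unknown, and its part in widths and ranks was not tested. Among the 100 strongest peaks HOMER listed no peak at 2 and 0 in C13 and at 23 and 24 in C18. Of the 20000 strongest C18 peaks, 97.8% and 98.0% had a HOMER peak. Of all 100000 F-Seq peaks, 94.4% and 93.6% had one in C13, but only 42.4% and 42.0% in C18. Many weak C18 ranks therefore rest on F-Seq alone. The HOMER lists are shorter in C18, and the part of their length in this was not tested.

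The C13 libraries shared more of their strongest peaks than the C18 libraries did. At least 1 base of overlap was found for 91.0% of peaks within C13, for 76.2% and 75.3% within C18, and for 53.7% to 59.2% between the populations. The index of shared to joint bases was 0.759 within C13, 0.508 within C18 and 0.338 to 0.344 between them. Best-peak ranks over tested loci had a Spearman correlation of 0.951 within C13 and 0.910 within C18, and of 0.487 to 0.573 between populations, over 13733 loci of the same genome. For distal peak ranks it was 0.931 within C13, 0.739 within C18 and 0.0607 to 0.181 between populations, over 6775 loci. Merging the 4 lists gave 32945 regions. All 4 libraries held 9360 of them (28.4%), both C13 libraries alone 6568 (19.9%) and both C18 libraries alone 4434 (13.5%). Without C18 replicate 1 or 2 the regions of C18 alone numbered 8385 and 7419. The 4 pairs of libraries from different populations held 99 to 178 regions each. With 3 ways to pair 4 libraries an exact test cannot go below 0.333, so no p is given.

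**Figure D5:**
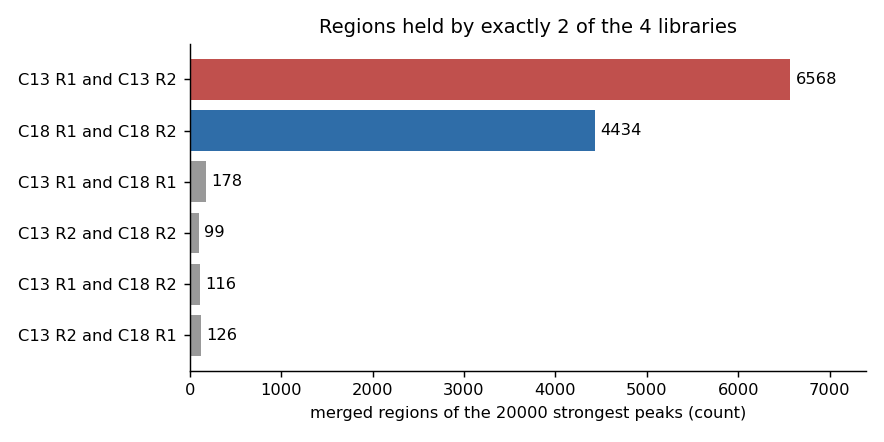
Number of merged regions of the 20000 strongest peaks held by exactly 2 of the 4 libraries, for each of the 6 pairs. The pair of C13 libraries holds 6568 and the pair of C18 libraries 4434, while the grey bars, pairs from different populations, stay between 99 and 178.

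Regions held by C13 alone were mainly distal. Of these, 91.3% were distal, 6.90% lay at a promoter and 1.77% at an end of a gene without a listed start. The median distance to a listed start was 42175 bases. Of the regions held by C18 alone, 57.4% were distal, 35.5% at a promoter and 7.06% at such an end, with a median distance of 12480 bases. In both cases most sites had a weaker F-Seq peak in at least 1 library of the other population. Such a peak, of any rank, lay in a C18 library at 73.2% of the C13 regions, and in a C13 library at 82.5% of the C18 regions. Both libraries of the other population had one at 51.0% and 80.8%. No F-Seq peak at all in the other population was found for 1760 and 775 regions. HOMER, with shorter lists in C18, listed a peak in a C18 library at 45.2% of the C13 regions. It listed one in a C13 library at 82.9% of the C18 regions. HOMER listed a peak in both C13 libraries at each C13 region and in both C18 libraries at 92.4% of the C18 regions.

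The strongest C13 region, chr3:81924823-81927377, lay 6501 bases from the start of Ctso and ranked 99 and 32 in C13 and 24051 and 55113 in C18. The next were chr3:135191603-135192951, 20286 bases from Cenpe, a kinesin of chromosome segregation (90 and 78), and chr10:37320354-37321993, 346629 bases from the nearest listed start, that of Hdac2 (107 and 88). Next came chr3:127354822-127356392 inside Ank2 (123 and 129) and chr2:11635211-11637934, 6220 bases from Il2ra, the interleukin 2 receptor alpha chain (260 and 52 in C13, 23328 and 21103 in C18). None of the 5 strongest C18 regions had HOMER peaks in both C18 libraries. They lay at chrX:61852623-61853302, chr9:91900799-91901587, chr12:4417488-4418262 inside Ncoa1, chr11:19236522-19237180 and chr13:28135673-28136306, and ranked from 1 to 11 in C18 and from 53969 to unlisted in C13. With HOMER peaks in both, the strongest were at the promoters of Csnk1g2 (chr10:80621706-80624361), Pop7 (chr5:137501531-137503483) and Dop1b (chr16:93710735-93713067), inside Ranbp3 (chr17:56672504-56674199) and inside Rftn1 (chr17:50018931-50021111).

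Counted by locus, regions of C13 alone were most numerous at Tmtc1 (11 of 12 regions), Ubac2 (11 of 21), and Cmss1, Lpp and Nav2 (8 each), and regions of C18 alone at Gse1 (9 of 28) and at Afmid, Ctc1, Palld and Tex14 (5 each). A region was counted at each locus it fell in, so some counted more than once, and regions outside loci were left out. Counted so over all loci, 14.1% were held by C13 alone and 15.8% by C18 alone, where the merged regions had 19.9% and 13.5%. In the lymphoid list these were 20 and 2 of 54 (37.0% and 3.70%). In the mast cell, basophil and eosinophil list they were 5 and 0 of 13, and among myeloid factors 8 and 2 of 35. In the erythroid list they were 8 and 27 of 112 (7.14% and 24.1%), among erythro-megakaryocytic factors 7 and 15 of 78, and in the housekeeping list 3 and 8 of 48 (6.25% and 16.7%). The megakaryocyte and platelet list held 19 and 16 of 94, and the stem list 15 and 14 of 76.

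Promoters with a top peak in both C13 libraries and neither C18 library differed in base composition from those of C18 alone. The 250 bases before the start had a median GC content of 52.4% and 5 CpG dinucleotides at the 494 C13 promoters, and 60.4% and 17 at the 1906 C18 promoters, against 52.4% and 6 at all 32851. GAGGAAGT was found on either strand at 5.87% of the C13 and 1.99% of the C18 promoters, beside 2.44% of all. TGTGGT was found at 19.2%, 10.7% and 14.0%. GATAA was found at 18.2%, 15.8% and 22.6%, so neither set exceeded all promoters. CACGTG, the E-box of MYC, was found at 5.47%, 10.8% and 6.02%. The 6670 promoters with a top peak in all 4 libraries had a median GC content of 60.4% and 17 CpG dinucleotides, as in the C18 set. GATAA was found at 12.9% of them, less than in either set. GAGGAAGT was found at 2.86% of these 6670, TGTGGT at 10.3% and CACGTG at 8.70%. The part of base composition in these shares was not tested.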

How the data were processed

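Per the labels' protocols, 40000 to 50000 cells per library were treated with the TDE1 transposase in digitonin. The submitters' processing notes name Bowtie 1.0.0, HOMER 1.0 and mm10. The authors deposited 100000 F-Seq peaks per library, with a signal value in column 7 on a scale that no label or header states. The deposited HOMER lists hold 150-base peaks with 2 unlabelled score columns. Their lowest second score was 16 and 15 in C13 and 10 and 9 in C18. They hold 252844 and 249132 peaks in C13 and 72379 and 83548 in C18. For HOMER ranks they were cut to the 72379 peaks of the shortest list. Whether HOMER listed a peak under an F-Seq peak or in a region was read from the uncut lists, which are longer in C13. Read depth is unknown, and 0 columns were left unused for lack of a sample.

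Ranks were compared as -log2(rank) with limma 3.58.1 in R 4.3.3, with a variance trend and Benjamini-Hochberg adjustment over all loci tested. Genes and starts are those of RefSeq on GRCm38.p6. The promoter table used holds starts of 17492 of 21887 genes (79.9%), and none on chromosome 18. The test was checked on simulated data. The text names the sort markers, the 10 called loci per direction with the smallest p (5 for promoters and distal peaks), up to 4 members per direction of each list and the 5 strongest regions of each population. Other genes, the dendritic cell list, the leaders with HOMER support, the HOMER ranking by the second score and the fits without chromosomes X and Y were chosen after values were seen. Some named loci are not reported here. The members and all lists were chosen with earlier results of these data known.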

Additional observations from a re-analysis of the deposited data

How the results depend on the processing

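Leaving out 1 library at a time gave 1176 to 2232 higher and 3929 to 4417 lower loci, 589 to 1330 higher and 1074 to 1428 lower promoters, and 208 to 2236 higher and 635 to 1292 lower distal peaks. The filter was applied again in each fit without a library, so these counts cover different loci. With loci ranked among loci 3303 were lower. With all ranks beyond 20000 set equal, 758 promoters were higher and 949 lower, and 945 distal peaks lower. Without the filter 1427 promoters were lower, and with the 10000 strongest peaks 859 distal peaks. Regions of C13 alone and C18 alone numbered 3567 and 2784 from the 10000 strongest peaks, 11579 and 6994 from the 40000 strongest and, for C18, 4969 to 8385 with 1 library left out. They numbered 1760 and 775 with no peak at all in the other population. Overlap within C13, within C18 and between them was 88.6%, 79.0% and 52.6% with 10000 peaks, 92.3%, 73.4% and 60.3% with 40000, 88.0%, 74.4% and 52.9% in the HOMER lists, and 90.6%, 76.5% and 60.7% by signal times width. Signs reversed by signal times width at Kit (0.053), Cd9 (-0.63) and the Tgfbr1 promoter (0.18), with 2 kb to each side at Aqp1 (-0.45) and Sdha (-0.24), and with 50 kb at Rhag (0.58), Gp9 (1.68), Ly6c2 (-0.21), Il5ra (-0.32), Mertk (-2.52), Flt1 (0.24), Mki67 (0.47), Gusb (-1.52) and Ccr9 (-1.10). The Gfap promoter had 0.0 with ranks set equal. The cause was not tested. Of 209 named results 130 kept direction and side of the threshold in every alternative run. Replicate numbers were not shown to pair the samples (correlation of deviations 0.167 for loci, 0.231 for promoters and 0.0458 for distal peaks, over 2 pairs). With the replicate block 2482 loci were higher and 6267 lower, 1718 and 2544 promoters, and 1545 and 1678 distal peaks, and Fcgr3 passed (-0.79, adjusted p = 0.035).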
